A study of Rattus norvegicus with 20 samples.

Results

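The Cyp4 genes are cytochrome P450 enzymes that put a hydroxyl group on the terminal, or omega, carbon of fatty acids and eicosanoids. The 7 members taken here were Cyp4a1, Cyp4a2, Cyp4a3 and Cyp4a8 of the Cyp4a subfamily, Cyp4f1 and Cyp4f4 of the Cyp4f subfamily, and Cyp4b1. They were chosen by gene symbol: every probe set that the array annotation gives to a listed member was used. That rule found 7 probe sets of a single member, covering 6 members, and 1 probe set shared by Cyp4a2 and Cyp4a3, out of 31099 probe sets in all. Cyp4a2 had no probe set of its own, and Cyp4a8 had 2. The probe sets are 1368934_at for Cyp4a1, 1370397_at for Cyp4a3, 1394844_s_at for Cyp4a2 and Cyp4a3 together, 1368607_at and 1393894_at for Cyp4a8 (called its first and second here), 1370399_at for Cyp4b1, 1368467_at for Cyp4f1 and 1387973_at for Cyp4f4. The livers came from male Sprague-Dawley rats that were 4 weeks old on arrival and were kept for 7 d on a commercial diet. Groups of 7 rats were then fed for 15 d a diet with 0.2% sesamin, a diet with 0.2% episesamin, a diet with 0.2% sesamolin, or the same kind of diet free of lignan. From each group 5 livers were put on Affymetrix arrays, 1 array per rat, and the heaviest and the lightest rat of the group were left out. Each lignan was therefore seen at 1 dose and 1 time, in whole liver of males.

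Fatty acids are degraded mainly from the carboxyl end. The omega route starts instead at the other end: a Cyp4 enzyme in the endoplasmic reticulum, fed with electrons by cytochrome P450 reductase, makes an omega-hydroxy fatty acid. Alcohol and aldehyde dehydrogenases then turn this into a dicarboxylic acid, which peroxisomes shorten. In rodent liver the Cyp4a genes are classical targets of the fatty acid receptor PPARα, while Cyp4f enzymes are best known for inactivating leukotriene B4 and related eicosanoids. Sesamin and episesamin are lignans of sesame oil that differ only in the configuration at a single carbon of their central furofuran rings, and sesamolin has an extra oxygen linking an aromatic group to those rings.

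In the rat assembly GRCr8, as RefSeq annotates it, the Cyp4a members and Cyp4b1 lie in 1 cluster on chromosome 5, in the order Cyp4x1, Cyp4a8, Cyp4a2, Cyp4a2l1, Cyp4a3, Cyp4a1, Cyp4b1. Cyp4f1 and Cyp4f4 lie on chromosome 7, among other Cyp4f genes. The RefSeq promoter table for that build held 5 of the 7 members: Cyp4a2, Cyp4a3, Cyp4a8, Cyp4b1 and Cyp4f1. The 250 bases before the annotated start are printed for 4 of them, 5′ to 3′ on the gene's own strand. They show how alike these promoters are. Transcripts, proteins and probe sequences of the members were not compared. Capitals mark AGGTCA, the hexamer that nuclear receptors such as PPARα bind as a repeat. The windows are chr5:134170909-134171158 (minus strand) for Cyp4a2, chr5:134352237-134352486 (minus strand) for Cyp4a3, chr5:133970227-133970476 (minus strand) for Cyp4a8 and chr7:12672554-12672803 (minus strand) for Cyp4f1.
Cyp4a2: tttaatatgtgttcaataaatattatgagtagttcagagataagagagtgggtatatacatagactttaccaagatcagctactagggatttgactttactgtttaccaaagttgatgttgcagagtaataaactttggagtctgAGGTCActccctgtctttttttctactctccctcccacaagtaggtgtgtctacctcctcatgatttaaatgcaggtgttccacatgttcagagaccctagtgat
Cyp4a3: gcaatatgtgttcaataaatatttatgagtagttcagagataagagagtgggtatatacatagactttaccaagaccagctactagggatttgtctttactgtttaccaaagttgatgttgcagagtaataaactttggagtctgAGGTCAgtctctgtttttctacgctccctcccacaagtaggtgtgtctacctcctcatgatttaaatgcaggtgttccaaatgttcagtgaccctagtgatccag
Cyp4a8: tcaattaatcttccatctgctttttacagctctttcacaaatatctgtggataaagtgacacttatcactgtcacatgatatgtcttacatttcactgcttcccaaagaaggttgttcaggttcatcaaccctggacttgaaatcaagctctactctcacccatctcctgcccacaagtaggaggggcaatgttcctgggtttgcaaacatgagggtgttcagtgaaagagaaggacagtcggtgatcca
Cyp4f1: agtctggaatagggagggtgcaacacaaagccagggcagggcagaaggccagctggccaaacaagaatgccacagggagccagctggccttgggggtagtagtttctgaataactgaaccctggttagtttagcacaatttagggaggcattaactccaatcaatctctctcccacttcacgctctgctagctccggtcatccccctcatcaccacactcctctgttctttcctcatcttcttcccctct
The promoters of Cyp4a2 and Cyp4a3 are near copies, with 236 identical bases in 245 aligned and 10 gap positions, an identity of 92.5%. Cyp4a8 was 54.2% identical to Cyp4a2 and 56.2% to Cyp4a3, little above the 49.8% and 49.3% of Cyp4f1 with the same genes. The hexamer, searched on both strands, was found once in Cyp4a2 and once in Cyp4a3, starting 105 bases before the annotated start in each, and in none of the other 3 windows. Of 33469 RefSeq promoters of this length, 14.1% hold it. No member's window held 2 such hexamers in the same direction with a 1-base spacer, even with 2 mismatches allowed, an arrangement present in 3.1% of all promoters. A match is a run of letters and says nothing of binding.

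Deposited intensities were not on a common scale: array means ran from 159 to 271, and 6 arrays had means under 200 (1 sesamin, 2 episesamin, 2 sesamolin and 1 lignan-free). Values below are intensities after quantile normalization across the 20 arrays, and changes are differences of log2(intensity + 5.85) from 1 limma fit to all arrays, given with their standard error (SE). Adding 5.85 makes changes of dim probe sets look smaller than they are. A probe set is called where the Benjamini-Hochberg adjusted p over all 15894 probe sets tested is under 0.05. To be tested, a probe set had to exceed 17.8 on at least 5 arrays, and all 7 member probe sets did. Probe sets differ in brightness for reasons of design, so a level is compared between diets and never between genes. In whole liver, fewer cells of a type and less RNA per cell cannot be told apart. Hepatocyte genes were bright on every array (Alb, Ttr, Apoa1, Apob, Serpina1, Ahsg and Fgb summed to 78050 to 89120) and none of the 7 was called by limma for any lignan against the lignan-free diet, with 0, 1 and 1 under an unadjusted p of 0.05 for sesamin, episesamin and sesamolin. The numbers of arrays limit the precision of every value.

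Sesamin feeding left 2 of the 7 member probe sets higher and 0 lower than the lignan-free diet (2 at an unadjusted p under 0.05), against 0.315% higher and 0.0189% lower of all probe sets tested. With episesamin 2 were higher and 1 was lower, against 2.33% and 1.43% of all. With sesamolin 2 were higher and 2 were lower, against 2.6% and 2.26% of all. The higher ones were Cyp4a1 and Cyp4a3 each time. The lower ones were Cyp4b1 with episesamin, and Cyp4b1 and Cyp4f1 with sesamolin. The F test over the 4 diets called Cyp4a1, Cyp4a3 and Cyp4b1, against 3.52% of all probe sets. The median change over the 7 was 0.09, -0.05 and -0.37 log2 units for sesamin, episesamin and sesamolin, where the median over all probe sets was -0.009, -0.016 and -0.012.

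**Figure D1:**
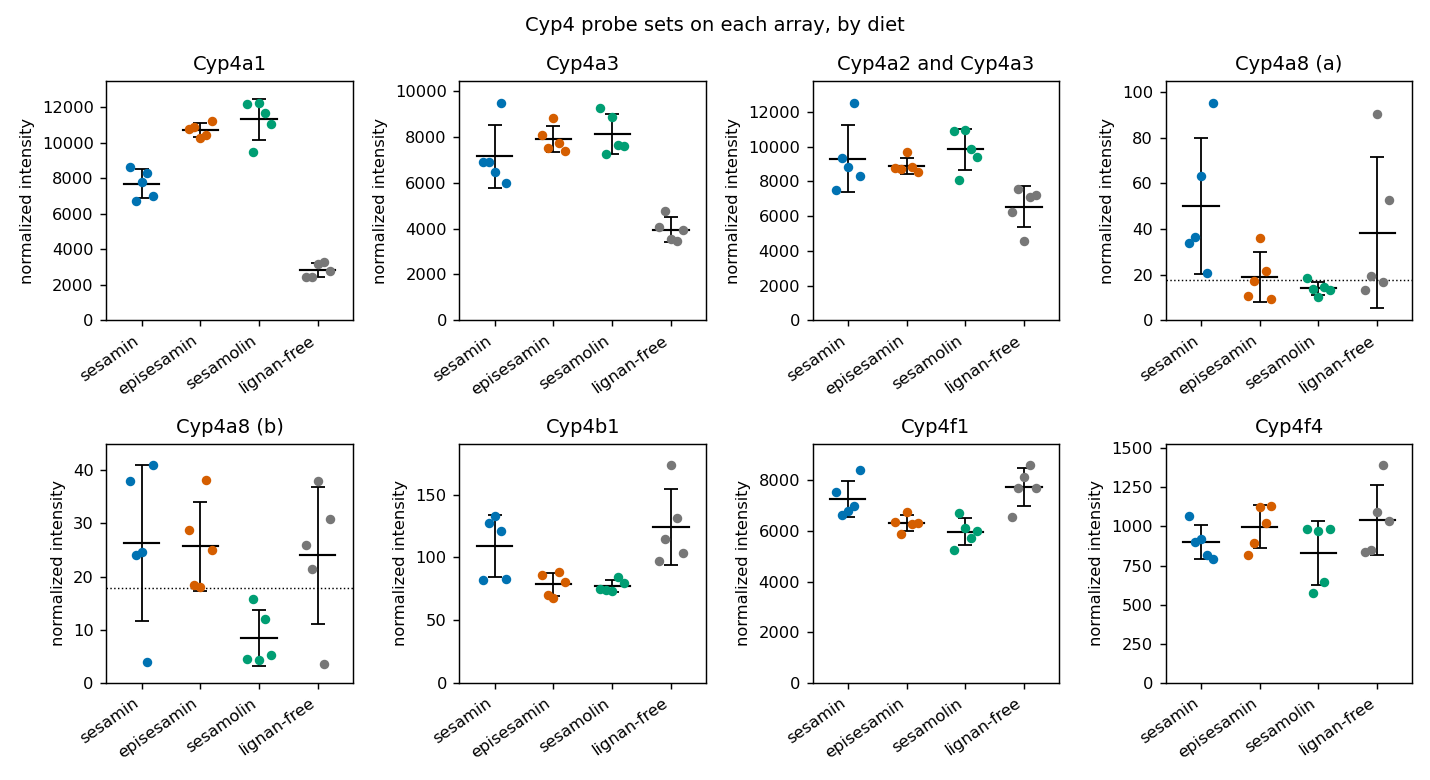
Normalized intensity (linear, arbitrary units; each panel has its own scale from 0) of the 8 Cyp4 probe sets by diet, with 1 point per rat, the mean as a long bar and the SD as an error bar (n = 5 per diet). The dotted line marks 17.8, the level used as a filter. All lignan points of Cyp4a1 and Cyp4a3 lie above all lignan-free points, and the points of Cyp4a8 scatter around the dotted line; (a) is probe set 1368607_at and (b) is 1393894_at.

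Cyp4a1, the hydroxylase of lauric acid that is the textbook marker of peroxisome proliferators in rat liver, had the largest change of the 8 Cyp4 probe sets. With sesamin its 5 rats had intensities of 8626, 6733, 7806, 8291 and 6982. With episesamin they had 10815, 10903, 10271, 10442 and 11239, and with sesamolin 12171, 9484, 12266, 11688 and 11049. On the lignan-free diet they had 2451, 2432, 3165, 3275 and 2761. Every lignan-fed rat was above every lignan-free rat, and the episesamin and sesamolin rats were all above the sesamin rats. Means were 7687 ± 816.7 with sesamin, 10730 ± 384 with episesamin, 11330 ± 1140 with sesamolin and 2817 ± 392.3 without lignan (SD, n = 5 each). The log2 change was 1.45 ± 0.10 for sesamin (2.73-fold, adjusted p = 9.06e-08), 1.94 ± 0.10 for episesamin (3.83-fold, adjusted p = 5.8e-10) and 2.01 ± 0.10 for sesamolin (4.03-fold, adjusted p = 3.01e-10). The annotation gives this probe set the gene ID of Cyp4a1, but the sequence accession it lists belongs to Cyp4b1 in the current RefSeq table, so the name rests on the gene ID.

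Cyp4a3, which in the rat hydroxylates fatty acids and arachidonic acid, moved the same way by about 1 log2 unit. The name of its probe set is that of the annotation, and whether it also reads Cyp4a2 was not tested. Its intensities were 6907, 6907, 6444, 9484 and 5992 with sesamin, 8065, 7512, 8803, 7738 and 7394 with episesamin, and 9277, 7270, 8850, 7627 and 7597 with sesamolin. Without lignan they were 4072, 4786, 3523, 3476 and 3927. No lignan-fed rat overlapped with the lignan-free rats, while the 3 lignan groups overlapped with each other. The change was 0.84 ± 0.12 for sesamin (1.79-fold, adjusted p = 0.000829), 1.0 ± 0.12 for episesamin (2.01-fold, adjusted p = 2.69e-05) and 1.04 ± 0.12 for sesamolin (2.06-fold, adjusted p = 1.93e-05). Without normalization between arrays the sesamin call was lost (0.78, adjusted p = 0.388).

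Cyp4a2, whose enzyme is a near copy of that of Cyp4a3, was seen only through the probe set that both genes share, and its own transcript could not be separated. That probe set read 7512, 9315, 8803, 12524 and 8291 with sesamin, 8751, 8698, 9671, 8803 and 8543 with episesamin, 10903, 8065, 10965, 9843 and 9410 with sesamolin, and 6259, 7569, 4585, 7072 and 7201 without lignan. All episesamin and sesamolin rats were above all lignan-free rats, and 1 sesamin rat, at 7512, was not. It was tested in a further fit that also held probe sets of several genes, chosen after the data were seen. There the change was 0.51 ± 0.14 for sesamin (adjusted p = 0.264), 0.46 ± 0.14 for episesamin (adjusted p = 0.0786) and 0.60 ± 0.14 for sesamolin (adjusted p = 0.0198), so that only the sesamolin value was called. That call was lost without normalization (0.49, adjusted p = 0.252), with only the groups compared (adjusted p = 0.0706), without the arrays under 200 in mean intensity (0.57, adjusted p = 0.0571) or numbered 1 (0.55, adjusted p = 0.0962), and without sesamolin rat 1 or 3 (adjusted p = 0.0508 and 0.0514). The episesamin value passed with the stricter filter of 45.1, with trended and robust eBayes, with array brightness as a covariate (adjusted p = 0.0489, 0.0403 and 0.0322) and without sesamin rat 4 (adjusted p = 0.0466).

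Cyp4a8, a Cyp4a gene known mainly from rat kidney, was at the edge of detection and was called for no lignan. Its first probe set read 34.0, 36.5, 63.4, 20.9 and 95.3 with sesamin, 10.8, 17.3, 36.0, 21.6 and 9.10 with episesamin, 18.4, 13.5, 10.4, 14.5 and 13.2 with sesamolin, and 13.1, 19.3, 90.6, 16.7 and 52.6 without lignan. The second read 38.0, 24.1, 24.5, 3.89 and 40.9 with sesamin, 28.8, 18.3, 17.98, 38.2 and 25.0 with episesamin, 4.58, 15.8, 4.38, 12.1 and 5.17 with sesamolin, and 26.0, 21.5, 37.9, 3.61 and 30.8 without lignan. The sesamolin group had the lowest mean on both, although single rats of other diets were lower. On the first, 5, 2 and 1 of 5 rats passed 17.8 with sesamin, episesamin and sesamolin, against 3 of 5 without lignan. On the second, 4, 5 and 0 of 5 passed, against 4 of 5 without lignan. The first probe set differed from the lignan-free level by 0.48 ± 0.42 for sesamin and -0.64 ± 0.42 for episesamin (adjusted p = 0.903 and 0.438), and the second by 0.09 ± 0.42 and 0.21 ± 0.42 (adjusted p = 0.986 and 0.84). Each array of both groups was also raised to 17.8 where it was lower. The sesamolin mean was then 1.73-fold lower than the lignan-free mean on the first and 1.45-fold lower on the second. These folds are not lower bounds, since lignan-free arrays were raised too. Unraised, the limma estimates were -0.87 ± 0.42 (95% interval -1.74 to 0) and -0.97 ± 0.42 (-1.84 to -0.10). Neither was called (adjusted p = 0.268 and 0.209). The 2 probe sets had opposite signs with episesamin. Of the 7 kidney markers on the array, 3 stayed below the filter level on all arrays. Umod, Slc12a1 and Kap, which define kidney cells, averaged 5.49 or less in every diet group. Slc34a1, a phosphate transporter, averaged 14.6, 25.8 and 24.6 with sesamin, episesamin and sesamolin and 18.6 without lignan. Slc22a8, an organic anion transporter, was bright and averaged 2355, 1801 and 1759 with sesamin, episesamin and sesamolin and 2148 without lignan.

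Cyp4b1, best known from lung, where it also activates toxic furans, was dim and fell with episesamin and sesamolin. It read 81.6, 127, 133, 121 and 82.7 with sesamin, 86.1, 69.8, 67.7, 88.6 and 80.1 with episesamin, 75.1, 73.7, 73.5, 84.5 and 79.7 with sesamolin, and 97.0, 115, 173, 131 and 103 without lignan. All episesamin and sesamolin rats were below all lignan-free rats, and the sesamin rats spread over both ranges. Relative to the lignan-free diet the change was -0.18 ± 0.15 for sesamin (adjusted p = 0.906), -0.60 ± 0.15 for episesamin (0.659-fold, adjusted p = 0.0357) and -0.62 ± 0.15 for sesamolin (0.653-fold, adjusted p = 0.028). Of the 5 lung markers on the array, Sftpb, Sftpa1 and Ager averaged 14.2 or less in every group and were not tested. Sftpc averaged 20.9, 25.8 and 25.1 with sesamin, episesamin and sesamolin and 19.0 without lignan, and Scgb1a1 averaged 17.5, 14.1, 18.02 and 16.6 in the same order, and neither was called (0 of 2 at an unadjusted p under 0.05). Both falls lost their call without the 6 arrays under 200 (-0.48, adjusted p = 0.204, for episesamin; -0.49, adjusted p = 0.159, for sesamolin) and with only the groups compared (adjusted p = 0.0817 and 0.0595), and that of episesamin also with no filter (adjusted p = 0.0514). Leaving out single rats also ended them: lignan-free rat 2, 3 or 4 or episesamin rat 2, 3 or 5 for episesamin (adjusted p = 0.0582 to 0.0882), and lignan-free rat 3 or 4 or sesamolin rat 1, 2, 3 or 5 for sesamolin (adjusted p = 0.0511 to 0.0649).

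Cyp4f1, which in the rat hydroxylates leukotriene B4, was bright in every liver and was somewhat lower with sesamolin. It read 7529, 6606, 6792, 6982 and 8383 with sesamin, 6337, 5889, 6755, 6272 and 6290 with episesamin, 5241, 6720, 6120, 5732 and 6007 with sesamolin, and 6542, 7689, 8138, 8578 and 7689 without lignan. The sesamin rats overlapped with the lignan-free rats, and the episesamin and sesamolin rats did so through lignan-free rat 1, at 6542. The change was -0.09 ± 0.09 for sesamin (adjusted p = 0.927), -0.29 ± 0.09 for episesamin (adjusted p = 0.0965) and -0.37 ± 0.09 for sesamolin (0.773-fold, adjusted p = 0.0273). The sesamolin call was lost with median scaling (-0.33, adjusted p = 0.0809), without normalization (-0.45, adjusted p = 0.15), with only the groups compared (adjusted p = 0.103), without the 6 arrays under 200 (-0.40, adjusted p = 0.0836), and without lignan-free rat 2, 3, 4 or 5 or sesamolin rat 1, 4 or 5 (adjusted p = 0.0521 to 0.0728). The episesamin value passed without lignan-free rat 1 (-0.35, adjusted p = 0.0492), with trended and robust eBayes (adjusted p = 0.0256) and with array weights (adjusted p = 0.0498).

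Cyp4f4, a second leukotriene hydroxylase of rat liver, was called for no lignan. It read 1065, 900, 923, 817 and 792 with sesamin, 820, 892, 1123, 1023 and 1130 with episesamin, 984, 575, 971, 646 and 985 with sesamolin, and 837, 852, 1094, 1390 and 1036 without lignan. The 4 groups overlapped throughout. The change was -0.19 ± 0.17, -0.05 ± 0.17 and -0.33 ± 0.17 for sesamin, episesamin and sesamolin, with 95% intervals from -0.55 to 0.16, from -0.41 to 0.31 and from -0.69 to 0.02. Over the alternatives the episesamin value ran from -0.29 to 0.06.

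Some markers of the other liver cells were called lower with episesamin and sesamolin. Cyp4b1 was called lower with both of these lignans, and Cyp4f1 with sesamolin alone. Of all probe sets tested, 0.0189%, 1.43% and 2.26% were called lower with sesamin, episesamin and sesamolin. Of 6 Kupffer cell genes tested, 0, 1 and 4 were lower with sesamin, episesamin and sesamolin, with medians of -0.30, -0.38 and -0.70. Their summed intensity was 2520 to 4010 with sesamin, 2608 to 3328 with episesamin, 1889 to 2809 with sesamolin and 3472 to 4377 without lignan. Endothelial genes had medians of -0.09, -0.22 and -0.30, with 0, 2 and 2 of 6 called lower, the receptors Lyve1 and Kdr. Pecam1 was above 0 throughout, at 0.11 ± 0.13, 0.30 ± 0.13 and 0.26 ± 0.13, and was not called. Vwf with sesamin (0.04 ± 0.26) and Stab2 with episesamin (0.05 ± 0.16) were also above 0. Lyve1 and Kdr gave most of the summed intensity. That sum was 2490 to 2753, 2092 to 2383 and 2040 to 2520 with sesamin, episesamin and sesamolin and 2647 to 3074 without lignan. Stellate cell and fibroblast genes had medians of -0.20, -0.25 and -0.37, and limma called 0 of 7 with each lignan (1, 2 and 4 at an unadjusted p under 0.05). Bile duct genes had medians of -0.03, -0.04 and 0.30 with sesamin, episesamin and sesamolin, with 0 of 3 called by limma (0, 0 and 1 at an unadjusted p under 0.05). Lymphocyte and neutrophil genes had medians of -0.20, -0.65 and -0.34, with 0 of 5 called (0, 0 and 1 at an unadjusted p under 0.05). The part of these cells in the falls of Cyp4b1 and Cyp4f1 was not tested.

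**Figure D2:**
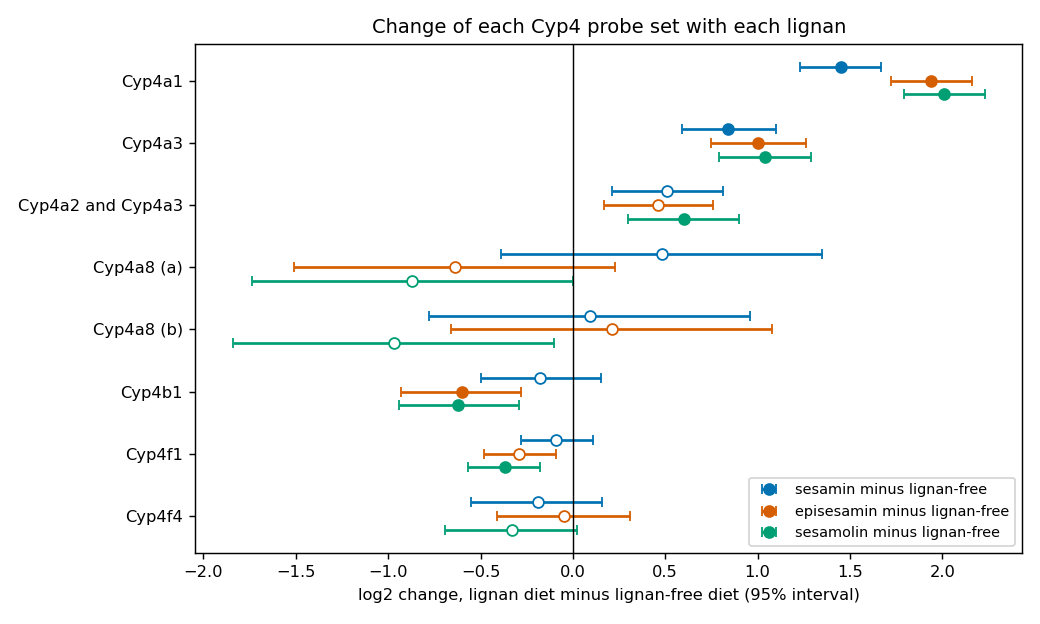
Log2 change of each Cyp4 probe set with each lignan diet minus the lignan-free diet; points are limma estimates, bars are 95% intervals, and filled points are called (adjusted p under 0.05). Cyp4a1 and Cyp4a3 lie right of 0 with all 3 lignans, whereas Cyp4b1 and both Cyp4f genes have no estimate above 0. The sesamolin points of Cyp4a8, and the episesamin point of Cyp4a8 (a), rest on groups mostly below 17.8, so their size is not measured.

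The subfamilies were then set side by side within each rat. Each gene was expressed relative to its lignan-free mean on the log2 scale, and the measured genes of a subfamily were averaged (Cyp4a1, Cyp4a3 and Cyp4a8 against Cyp4f1 and Cyp4f4). No test was run on these means, since the members were chosen with results known. The Cyp4a mean was 0.86 ± 0.16 with sesamin, 0.91 ± 0.10 with episesamin and 0.71 ± 0.08 with sesamolin (SD, n = 5), and the lignan-free rats ran from -0.34 to 0.36. The Cyp4f mean was -0.14 ± 0.10, -0.17 ± 0.12 and -0.35 ± 0.16 with sesamin, episesamin and sesamolin, and the lignan-free rats ran from -0.26 to 0.30. Without lignan-free rat 4 the Cyp4f means were -0.07 with sesamin and -0.09 with episesamin, over 1.5 times closer to 0. All 15 lignan-fed rats were thus above the lignan-free range for Cyp4a, and the Cyp4f values overlapped with theirs. Within a rat, Cyp4a minus Cyp4f was 0.86 to 1.15 with sesamin, 0.87 to 1.17 with episesamin and 0.82 to 1.32 with sesamolin, against -0.64 to 0.28 without lignan. Under a stricter filter of 45.1, which drops Cyp4a8, the Cyp4a means were 1.15, 1.47 and 1.53 with sesamin, episesamin and sesamolin. Sesamolin thus had the lowest Cyp4a mean with Cyp4a8 and the highest without it, so the order of the lignans rests on a gene at the edge of detection.

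**Figure D3:**
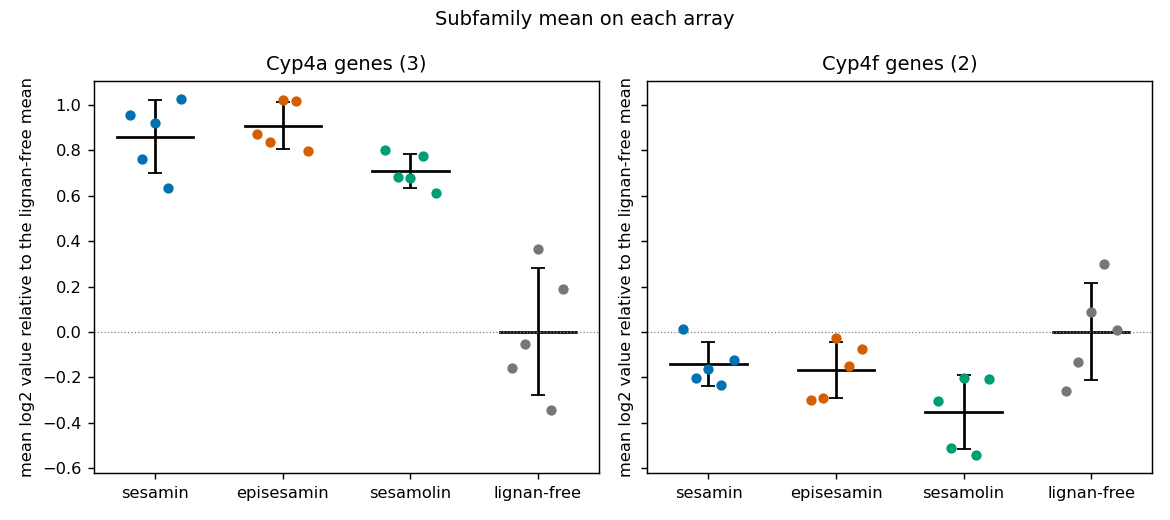
Mean log2 value of the measured Cyp4a genes (left) and Cyp4f genes (right) on each array, relative to the lignan-free mean; 1 point per rat, long bars are means and error bars SD (n = 5 per diet). Cyp4a means of the lignan diets lie between 0.71 and 0.91, and Cyp4f means between -0.35 and -0.14. The Cyp4a mean includes Cyp4a8, which was at the edge of detection, and the order of the lignans changes without it.

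Differences between single members were also read within each rat, with no test. Lignan-free means were 2817 for Cyp4a1, 3957 for Cyp4a3 and 7727 for Cyp4f1, where the highest value on any array was 16033. Whether brighter probe sets understate a change was not tested, so these differences are those of the probe sets. Relative to the lignan-free mean of each, Cyp4a1 exceeded Cyp4a3 by 0.61 ± 0.22 log2 units with sesamin, 0.93 ± 0.14 with episesamin and 0.97 ± 0.10 with sesamolin (SD, n = 5), where the lignan-free rats ran from -0.48 to 0.40. The sesamin rats, at 0.30 to 0.81, overlapped with that range, and the episesamin and sesamolin rats, at 0.71 to 1.09 and 0.87 to 1.11, did not. The same difference between Cyp4a1 and Cyp4f1 was 1.54 ± 0.21, 2.23 ± 0.11 and 2.38 ± 0.27 with sesamin, episesamin and sesamolin, where the lignan-free rats ran from -0.20 to 0.10.

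The 3 lignans were compared with each other in 3 pairs at the same dose and time. Episesamin, the epimer, left 1 of 7 member probe sets higher than sesamin and 0 lower (4 at an unadjusted p under 0.05), against 0.749% and 0.289% of all probe sets. Sesamolin left 1 higher than sesamin and 0 lower (5 at an unadjusted p under 0.05), against 0.793% and 0.573% of all. Between sesamolin and episesamin limma called 0 of 7 (1 at an unadjusted p under 0.05), against 0% higher and 0% lower of all probe sets, of which 904 had an unadjusted p under 0.05.

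The probe set that separated the lignans was that of Cyp4a1. It was higher with episesamin than with sesamin by 0.49 ± 0.10 log2 units (1.4-fold, 95% interval 0.27 to 0.71, adjusted p = 0.0294). It was higher with sesamolin than with sesamin by 0.56 ± 0.10 (1.47-fold, 0.34 to 0.78, adjusted p = 0.00978). Between sesamolin and episesamin it differed by 0.07, with an interval from -0.15 to 0.29 (adjusted p = 0.975). The difference between episesamin and sesamin lost its call under median scaling (0.52, adjusted p = 0.0521), without the 6 arrays under 200 (0.46, adjusted p = 0.134), and without sesamin rat 2, 3 or 5 or any single episesamin rat (adjusted p = 0.0514 to 0.0881). Both calls against sesamin were lost without normalization and where the fit held only the 2 groups compared (adjusted p = 0.0704 to 0.553).

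For Cyp4a3 no pair of lignans differed past the threshold, and the intervals bound the difference: -0.09 to 0.41 for episesamin minus sesamin, -0.06 to 0.45 for sesamolin minus sesamin and -0.22 to 0.29 for sesamolin minus episesamin. Cyp4b1 was lower with episesamin and with sesamolin than with sesamin by estimates of -0.42 ± 0.15 and -0.44 ± 0.15, neither of which was called (adjusted p = 0.26 and 0.193). For Cyp4f1 those estimates were -0.20 ± 0.09 and -0.28 ± 0.09 (adjusted p = 0.4 and 0.164). On the first probe set of Cyp4a8 all 5 sesamolin rats were below all 5 sesamin rats. With arrays raised to 17.8 as above, the sesamolin mean was 2.43-fold lower than the sesamin mean. The unraised estimate was -1.35 ± 0.42, with an interval from -2.22 to -0.48, and was not called (adjusted p = 0.13). On the second probe set sesamin rat 4, at 3.89, was below every sesamolin rat. The raised fold there was 1.55, and the unraised estimate of -1.06 ± 0.42 was not called (adjusted p = 0.247).

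**Figure D4:**
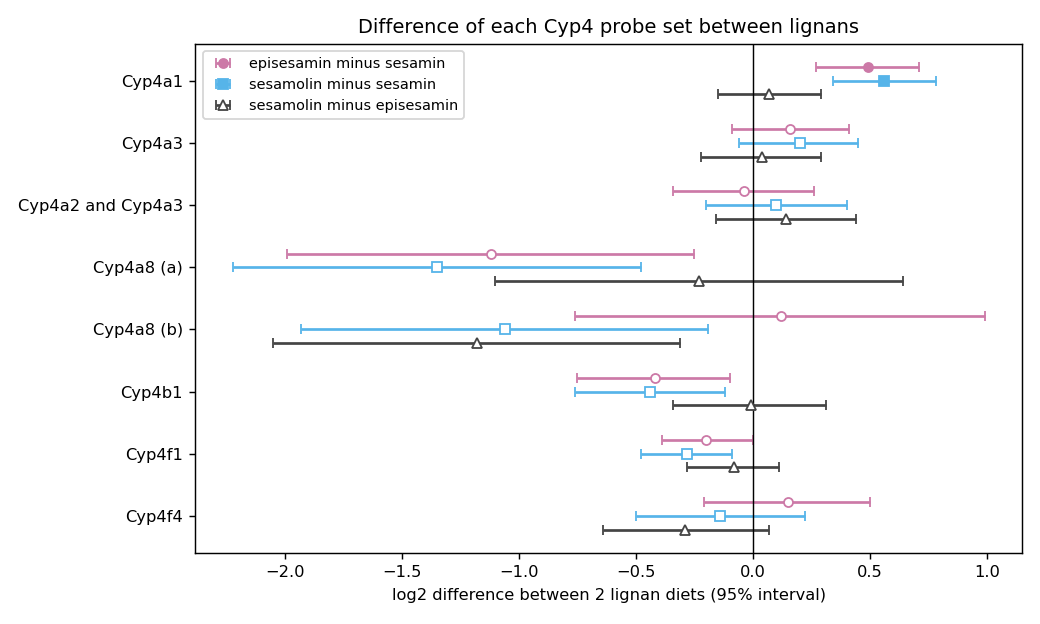
Log2 difference of each Cyp4 probe set between 2 lignan diets; points are limma estimates, bars are 95% intervals, filled points are called. The sesamolin points of Cyp4a8, and the episesamin points of Cyp4a8 (a), rest on groups mostly below 17.8, so their size is not measured. The 2 filled points are those of Cyp4a1, at 0.49 for episesamin minus sesamin and 0.56 for sesamolin minus sesamin.

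Genes that act beside the members in omega oxidation were read from lists drawn up with earlier results of these data known. Of all probe sets tested, 0.315%, 2.33% and 2.6% were called higher with sesamin, episesamin and sesamolin, and 0.0189%, 1.43% and 2.26% lower. The other Cyp4 genes showed no call: of 9 listed, 4 were tested, and limma called 0 for each lignan against the lignan-free diet (0 at an unadjusted p under 0.05). The brightest were Cyp4v3, at 0.10 ± 0.12, -0.10 ± 0.12 and 0.06 ± 0.12 with sesamin, episesamin and sesamolin, and Cyp4f6, at -0.23 ± 0.12, -0.24 ± 0.12 and -0.23 ± 0.12. Cyp4f6 thus had an estimate below 0 with each lignan, as did Cyp4f1 and Cyp4f4. Of all probe sets tested, 48.2%, 47.7% and 48.2% had an estimate above 0 with sesamin, episesamin and sesamolin. A gene's 3 estimates share the same lignan-free arrays, so their signs are not independent.

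Fatty acid hydroxylases outside the Cyp4 family included a gene that rose as Cyp4a1 did. Of 5 tested, 1, 2 and 2 rose with sesamin, episesamin and sesamolin and 0 fell, with medians of 0.09, 0.26 and 0.27. Cyp2j4, an arachidonic acid monooxygenase, rose by 1.0 ± 0.17, 1.87 ± 0.17 and 2.0 ± 0.17 (adjusted p = 0.00742, 8.7e-07 and 3.25e-07). Its relative Cyp2j3 rose with episesamin and sesamolin, by 0.44 ± 0.10 each (adjusted p = 0.0233 and 0.0207). Cyp2e1, which hydroxylates fatty acids beside the omega carbon, stood at 0.04 ± 0.10, 0.26 ± 0.10 and 0.27 ± 0.10 and was not called.

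Of the 4 electron donors tested, Por was called, and the cytochrome b5 genes Cyb5a and Cyb5b and the reductase gene Cyb5r3 were not. Por, the reductase that passes electrons to every microsomal P450, was at 0.11 ± 0.16 with sesamin (adjusted p = 0.955), 0.81 ± 0.16 with episesamin (adjusted p = 0.00635) and 0.58 ± 0.16 with sesamolin (adjusted p = 0.0449). Cyb5a, cytochrome b5, stood at 0.09 ± 0.09, 0.23 ± 0.09 and 0.11 ± 0.09.

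The next steps were read from 7 tested genes of 10 for oxidation to the dicarboxylic acid, of which 0, 2 and 2 rose and 0, 0 and 1 fell with sesamin, episesamin and sesamolin (medians 0.20, 0.53 and 0.45). Aldh3a2, the fatty aldehyde dehydrogenase, was at 0.34 ± 0.08 with sesamin (adjusted p = 0.0782), 0.53 ± 0.08 with episesamin (adjusted p = 0.000295) and 0.45 ± 0.08 with sesamolin (adjusted p = 0.00176). Aldh1a1, a retinal dehydrogenase, was at 0.96 ± 0.34, 2.51 ± 0.34 and 2.26 ± 0.34 (adjusted p = 0.509, 0.000138 and 0.000483). Aldh2, the mitochondrial acetaldehyde dehydrogenase, fell with sesamolin by 0.60 on the log2 scale (adjusted p = 0.0363). It stood at -0.01 ± 0.16 with sesamin and -0.45 ± 0.16 with episesamin, neither called. No alcohol dehydrogenase was called with any lignan. Adh4 was at 0.03 ± 0.26, 0.92 ± 0.26 and 0.76 ± 0.26 with sesamin, episesamin and sesamolin (adjusted p = 0.993, 0.0516 and 0.105). Adh5 and Adh7 were not called either, and Adh1 and Adh6 had no probe set of their own.

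Peroxisomal oxidation of dicarboxylic acids held the widest rise of these lists, which were chosen with results known. Of 8 tested genes of 11, 3, 6 and 6 rose with sesamin, episesamin and sesamolin and 0 fell, with medians of 0.27, 1.09 and 1.15. Ehhadh, the bifunctional enzyme that acts on dicarboxylic chains, rose by 1.61 ± 0.19, 3.15 ± 0.19 and 3.05 ± 0.19 (adjusted p = 6.99e-05, 1.63e-09 and 2.8e-09). Crot, the carnitine octanoyltransferase, rose by 1.81 ± 0.12, 2.49 ± 0.12 and 2.50 ± 0.12. The thioesterase Acot3 rose by 1.86 ± 0.23, 3.41 ± 0.23 and 3.20 ± 0.23. Acot8, another peroxisomal thioesterase, was at 0.26 ± 0.12 with sesamin (adjusted p = 0.66) and rose by 1.43 ± 0.12 with episesamin and 1.54 ± 0.12 with sesamolin. Scp2, a thiolase and sterol carrier, stood at -0.01 ± 0.07, -0.11 ± 0.07 and -0.15 ± 0.07 and was not called.

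Probe sets of the receptors themselves showed no call. Of 5 listed, 4 were tested, and limma called 0 for each lignan (0 at an unadjusted p under 0.05). Ppara was on the array but did not pass the filter, with mean intensities of 6.15, 7.61 and 4.94 with sesamin, episesamin and sesamolin and 5.64 without lignan, so no change of its RNA could be read. The partner Rxra stood at -0.07 ± 0.28, 0.34 ± 0.28 and -0.08 ± 0.28.

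Genes whose pattern over the 20 arrays was most like that of Cyp4a1 were ranked by the root mean square difference of log2 values, each relative to its lignan-free mean. The 5 nearest were Slc22a5, the carnitine transporter (0.273), Rab30, a small GTPase (0.306), Cyp2j4 (0.315), Gde1, a glycerophosphodiesterase (0.339), and Nudt7, a peroxisomal CoA hydrolase (0.365), where the median over all genes was 1.618. Cyp4a3 itself was farther away, at 0.769. Slc22a5 rose by 1.16, 2.21 and 1.93 log2 units with sesamin, episesamin and sesamolin. For Cyp4f1 the nearest were Dhtkd1 (0.11), P4hb, a protein disulfide isomerase (0.122), Serpina4 (0.126), Otc, the urea cycle ornithine transcarbamylase (0.129), and Serf2 (0.13), where the median was 0.396. A flat pattern is near to many genes, and Cyp4f1 changed little. These distances describe the 20 arrays and share their normalization.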

How the data were processed

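The authors deposited a linear intensity for each probe set of each rat, measured on Affymetrix arrays. Biotin-labelled cRNA was made from liver total RNA with a One-Cycle kit, per the labels' protocols. Which software computed the intensities was not given in the sources used here. Array means differed 1.7-fold, so no common scale had been set. Here the 20 arrays were quantile normalized, 5.85 (the 20th percentile) was added and log2 taken. The 20832 probe sets with 1 gene symbol, control probe sets excepted, were kept where they exceeded 17.8 (the 40th percentile) on at least 5 arrays, which left 15894. A model of 4 diet means was fitted in R 4.3.3 by limma 3.58.1, with residual degrees of freedom of 16 and prior ones of 2.67. Tests were two-sided and p-values were adjusted by Benjamini-Hochberg over all probe sets of a comparison. Each lignan is set against the same lignan-free arrays, so the 3 lignan changes are not independent of each other.

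The members and all gene lists were chosen with earlier results of these data known. All 7 members are named. From each list of the omega oxidation pathway, the text names at most 4 called genes, taken by smallest adjusted p, and at most 2 uncalled ones, taken by brightness, some of the latter by counts alone. Named outside that rule were Cyb5b, Adh1, Adh4, Adh6 and Adh7, Rxra, which was dimmer than Ppard, and Ppara, which was not tested. Marker genes of liver cells, kidney and lung were chosen for naming after their values were seen. A gene with several probe sets stands in the lists by its brightest. The symbol of the platform annotation was used for each probe set; 436 probe sets had several symbols and 9831 were not listed. Alternatives were median scaling, no normalization, 2 other offsets, 2 other filters, 1 value per gene (brightest probe set or mean), array weights, eBayes with a trend and robust, only the groups compared, the replicate number as a block, covariates for array brightness or the 3′ to 5′ ratio of actin, and leaving out the 6 dim arrays, the 4 arrays numbered 1 and each array in turn. The fit was tested on simulated data. Promoters were read from the RefSeq table with Python 3.11.15 and aligned with Biopython 1.88, and plots were drawn with matplotlib 3.10.9.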

Additional observations from a re-analysis of the deposited data

Results flagged for a closer look

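Of 32 groups of 5 rats (8 Cyp4 probe sets in 4 diets), 2 held a rat that stood far from the others of its diet, and chance marks about 1 group in 20. On the probe set shared by Cyp4a2 and Cyp4a3, episesamin rat 3 read 9671, where the other episesamin rats read 8543 to 8803. On the second probe set of Cyp4a8, 1393894_at, sesamin rat 4 read 3.893, where the other sesamin rats read 24.08 to 40.89.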

How the results depend on the processing

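Over all alternatives, 1698 member changes were recomputed: 1640 stayed on their side of the threshold, 50 lost a call, 8 gained one and 0 called values changed sign, while 26 values that were called in neither fit did. The calls of Cyp4a1 against the lignan-free diet held in every alternative run. Member probe sets called for episesamin against sesamin fell to 0, against 1, with median scaling, no normalization, only the groups compared, no dim arrays or no arrays numbered 1, and ran from 0 to 1 with single arrays left out. For sesamolin against sesamin there were 0 with no normalization or only the groups compared and 2 with trended and robust eBayes. For sesamin against lignan-free there was 1, in place of 2, without normalization. For sesamolin against lignan-free there were 2, in place of 4, with only the groups compared or without dim arrays, and 2 to 4 with single arrays left out; for episesamin there were 2 to 4, and the F test called 2 to 4. Subfamily means moved more than their SD as follows. Without normalization Cyp4a was 0.7675 with episesamin and 0.5927 with sesamolin, and Cyp4f was -0.3573 with episesamin. Cyp4a with sesamolin was 0.7928 with an offset of 16, 0.6096 with none, 0.8105 without dim arrays and 0.627 to 0.7976 with single arrays left out. With the filter at the 60th percentile, which drops Cyp4a8, Cyp4a was 1.147, 1.471 and 1.526 for sesamin, episesamin and sesamolin. With the brightest probe set per gene Cyp4a with episesamin was 0.7675, and without arrays numbered 1 Cyp4f with sesamin was -0.2464. Cyp4f moved by less than its SD with single arrays left out. There it ran from -0.2075 to -0.0679 with sesamin, -0.2336 to -0.0945 with episesamin and -0.4191 to -0.2803 with sesamolin. All probe sets called ran from 22 to 84 for sesamin (53 as reported), 267 to 814 for episesamin (599) and 258 to 980 for sesamolin (773) against lignan-free, from 10 to 240 (165) for episesamin and 20 to 329 (217) for sesamolin against sesamin, and from 0 to 1 for sesamolin against episesamin. The lowest counts came without normalization and the cause was not tested. With the replicate number as a block the members called stayed at 2, 3 and 4 for sesamin, episesamin and sesamolin. No member call changed. The labels give the numbers no meaning beyond a name, so the main fit did not treat the rats as paired. Over 30 same-numbered pairs the correlation of deviations ran from -0.0548 to 0.24, 9 of them over 0.1. The mean was 0.0627, against -0.0155 for other pairs. Of 20 arrays, 11 correlated best with an array of their own number. This is a hint from the data that same-numbered arrays share something, which the main fit leaves out and which was not tested. Cyp4a8, near the filter level, is limited by its signal over background.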
